A study of Mus musculus with 54 samples.

Results

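The genes described here are 40 genes of fatty acid oxidation and ketogenesis, out of 13815 genes measured in mouse liver. They are the rows of the expression table whose symbol was on a named list of enzymes, transporters and close companions of this pathway. Of the 40, 18 act in mitochondria (the carnitine shuttle, mitochondrial beta-oxidation, electron transfer from it, and ketone body enzymes). A further 14 act in peroxisomes or in omega-oxidation, and 8 belong to neither class (4 acyl-CoA synthetases, the isomerase Eci2, which is found in both organelles, and the PPARα targets Pdk4, Vnn1 and Angptl4). All 40 had a value in every library.

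Livers of mice lacking folliculin (Flcn) in hepatocytes were profiled by RNA-seq in 5 groups of 3 libraries. The AMLN DKO group had floxed Flcn alleles, a whole-body Tfe3 deletion (Tfe3 -/Y) and an AAV8 virus carrying Cre under the hepatocyte promoter TBG, and was fed the AMLN diet, a diet used to induce steatohepatitis. The AMLN LiFKO and chow LiFKO groups had floxed Flcn alleles and the same Cre virus, and were fed AMLN diet or normal chow. The AMLN Control and chow Control groups had the same floxed Flcn alleles and an AAV8-TBG-GFP virus, on the same diets. Mice stayed on their diet for 17 to 18.5 weeks and were fasted for 4 to 6 hours before the livers were taken. DKO livers were profiled on AMLN diet only, and Tfe3 loss alone was not profiled by RNA-seq. The DKO mice came from a line of their own. The labels give neither the ages of the mice nor whether each library came from a separate mouse, so p-values measure the spread between these libraries. TFE3 ChIP-seq peak lists came from other mice, fed freely, on chow or after 9 days of FPC diet, in LiFKO and Control livers, the FPC livers with or without a second virus expressing HA-tagged nuclear SREBP-1c (+1c) from a liver promoter.

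Folliculin acts with the Rag GTPases on the lysosome, where it lets mTORC1 hold the transcription factors TFE3 and TFEB in the cytoplasm, and without it TFE3 moves to the nucleus. Long-chain fatty acids are activated to acyl-CoA by synthetases, enter mitochondria through CPT1A, the carnitine carrier and CPT2. There they are shortened by acyl-CoA dehydrogenases, the trifunctional protein and thiolases, with electrons passed through the electron transfer flavoprotein to the respiratory chain. Peroxisomes shorten very long chains and the dicarboxylic acids that CYP4A enzymes make by omega-oxidation. The fasted liver turns acetyl-CoA from mitochondrial oxidation into ketone bodies. Many genes of both routes are classical targets of the nuclear receptor PPARα, and in rodents the peroxisomal ones respond to it strongly.

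The start regions of 3 members are shown: Hadha because a TFE3 peak lies at its start, beside that of Hadhb, Ehhadh because it had the largest called difference of the members between DKO and LiFKO livers, and Aldh3a2 because its window holds the E-box letters that TFE3 family members bind. RefSeq held a start region (250 bases before to 50 bases after the start, build GRCm38.p6) for 30 of the 40 members, in 34 windows. The windows are Hadha at chr5:30154931-30155230, Ehhadh at chr16:21787785-21788084 and Aldh3a2 at chr11:61267137-61267436, all on the minus strand and written 5′ to 3′, and the capitals mark CACGTG.
Hadha: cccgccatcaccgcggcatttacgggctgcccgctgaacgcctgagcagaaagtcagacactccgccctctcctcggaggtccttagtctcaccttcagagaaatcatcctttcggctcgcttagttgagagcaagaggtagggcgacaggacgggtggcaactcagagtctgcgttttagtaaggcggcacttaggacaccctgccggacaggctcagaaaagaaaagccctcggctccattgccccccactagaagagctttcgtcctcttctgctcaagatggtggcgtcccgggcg
Ehhadh: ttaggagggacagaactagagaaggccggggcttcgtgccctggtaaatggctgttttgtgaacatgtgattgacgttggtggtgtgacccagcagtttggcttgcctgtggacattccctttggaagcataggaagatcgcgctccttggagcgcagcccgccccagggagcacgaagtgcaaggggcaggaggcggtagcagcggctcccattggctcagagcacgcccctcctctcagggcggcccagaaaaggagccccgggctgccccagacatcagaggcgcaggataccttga
Aldh3a2: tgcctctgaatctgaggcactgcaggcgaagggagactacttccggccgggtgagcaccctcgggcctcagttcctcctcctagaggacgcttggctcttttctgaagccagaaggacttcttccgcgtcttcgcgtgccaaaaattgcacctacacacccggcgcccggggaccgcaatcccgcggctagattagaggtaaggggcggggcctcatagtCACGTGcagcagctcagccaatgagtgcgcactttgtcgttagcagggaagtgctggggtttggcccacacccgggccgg
CACGTG, which reads the same on both strands, stood in a window of 1 of the 30 members, Aldh3a2, 30 bases before its start, and in 7.15% of the 32851 windows of the table. A repeat of AGGTCA spaced by 1 base, the classical PPAR element, was sought on both strands and stood in no member window and in 13 windows of the table (0.0396%), and with the fourth letter of each copy free (AGGNCA) in no member window and in 125 windows of the table (0.381%). These counts describe the letters of a 300-base window only, and the peaks, which are given on another genome build, cannot be placed on these sequences.

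The values are log2 expression values deposited by the authors after normalization to a common distribution, with a maximum of 21.47 in every library, and no counts, so the depth of the libraries is unknown. Correlations between replicates over all genes were 0.9706 to 0.9878. Flcn, the targeted gene, had log2 values of 9.12, 9.45 and 9.91 in AMLN DKO, 10.25, 10.43 and 10.56 in AMLN LiFKO, and 10.92, 10.98 and 11.06 in AMLN Control livers. On chow it had 10.14, 10.53 and 10.55 in chow LiFKO livers against 11.33, 11.44 and 11.55 in chow Control livers. No LiFKO or DKO library reached its Control group. The gene-level Tfe3 value was 9.88 to 10.2 in AMLN DKO and 9.92 to 10.07 in AMLN LiFKO livers (log2 difference -0.01, adjusted p = 0.967 by limma). It does not check the DKO label, which is taken as given. Summed hepatocyte marker levels (11 of 12 listed genes measured) were 22.3 to 22.34 on the log2 scale in AMLN DKO, 21.79 to 21.86 in AMLN LiFKO, 22.28 to 22.32 in AMLN Control, 21.61 to 22.01 in chow LiFKO and 22.32 to 22.39 in chow Control livers. The sums were lower in both LiFKO groups, but they are carried by the most abundant genes: 1 of the 11 rose and 0 fell in LiFKO against Control livers on AMLN diet (median difference 0), and 2 rose and 2 fell on chow (median -0.1). Macrophage marker sums (11 of 12 measured) ran from 14.37 to 15.21 in AMLN DKO, 14.89 to 15.67 in AMLN LiFKO, 14.9 to 15.12 in AMLN Control, 14.35 to 14.74 in chow LiFKO and 14.12 to 15.16 in chow Control livers. Stellate cell and fibrosis marker sums (9 of 10 measured) ran from 13.73 to 14.58, 13.81 to 13.88, 13.9 to 14.42, 13.25 to 13.61 and 13.08 to 13.64 in the same order of groups. In LiFKO against Control livers on chow 1 of 11 macrophage genes rose (median -0.26) and 0 of 9 stellate cell and fibrosis genes were called (median 0.22). Of the remaining marker lists, in the same comparison 2 of 8 endothelial genes rose, 3 of 6 erythroid genes fell, and 0 of 5 cholangiocyte, 0 of 1 lymphocyte and 0 of 1 adipocyte genes were called. On AMLN diet, 2 of 11 macrophage genes rose in LiFKO against Control livers (median 0.58) and 2 fell in DKO against LiFKO livers (median -0.54). In those comparisons 1 of 9 stellate cell and fibrosis genes fell and 1 rose, and 1 of 8 endothelial genes rose and 1 fell. In LiFKO against Control livers alone, 1 of 6 erythroid and 1 of 5 cholangiocyte genes fell. The part of these markers in the results below was not tested, and in whole liver fewer cells of a type and less RNA per cell cannot be told apart.

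One library stood apart for these genes. AMLN Control replicate 3 had the lowest value of its group for 31 of the 40 members (16 of 18 mitochondrial, 10 of 14 peroxisomal and omega, 5 of 8 others), while it was lowest for 38.7% of all genes. Its members lay a median of -0.41 log2 from the mean of the other AMLN Control libraries (range -3.43 to 0.66), and the median over all genes was 0.0. Counts and medians against AMLN Control are therefore given with and without it, as are the differences of the members described by name where it changed a call or moved them far. It also enters the shared estimate of spread, so leaving it out raised some counts in comparisons that do not use it. For LiFKO against Control on chow there were then 20 higher (13.1% of all genes) and 3 lower members (14% of all genes). Of the higher ones, 13 were mitochondrial and 4 peroxisomal and omega members, with Hadh, Decr1, Pex11a and Cyp4a10 newly called. For DKO against LiFKO there were 10 higher (5.63% of all genes) and 0 lower members (6.39% of all genes).

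For the 18 mitochondrial members, the median difference from the chow Control mean was 0.61, 0.45 and 0.37 log2 in the AMLN DKO libraries, 0.77, 0.51 and 0.54 in AMLN LiFKO, 0.4, 0.42 and 0.01 in AMLN Control, 0.39, 0.47 and 0.51 in chow LiFKO and -0.12, 0.02 and 0.09 in chow Control. Every chow LiFKO library stood above every chow Control library, and every AMLN LiFKO library above every AMLN Control library. For the 14 peroxisomal and omega members the medians were 0.51, 0.61 and 0.44 in AMLN DKO, 0.53, 0.23 and 0.18 in AMLN LiFKO, 0.6, 0.43 and 0.05 in AMLN Control, 0.17, 0.12 and 0.41 in chow LiFKO and -0.18, 0 and 0.23 in chow Control. Here the LiFKO and Control libraries overlapped on both diets, and the DKO libraries lay within the range of AMLN LiFKO and AMLN Control or just above it. These medians are descriptions, with no test.

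**Figure D1:**
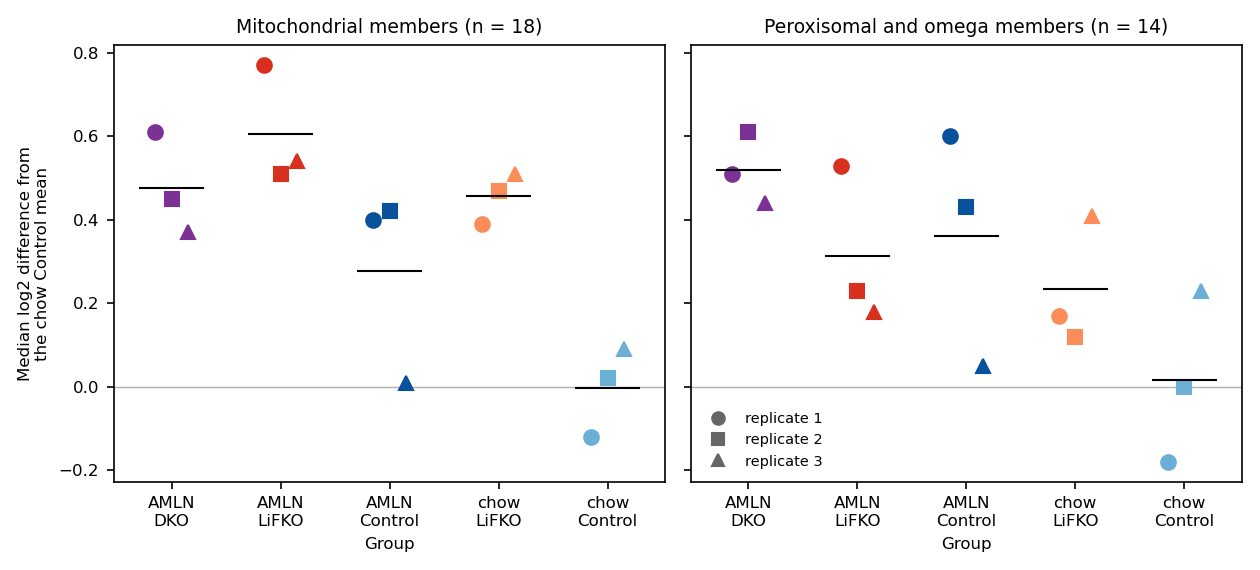
Median log2 difference from the chow Control mean over the 18 mitochondrial members (left) and the 14 peroxisomal and omega members (right), for each of the 3 libraries of 5 groups; lines mark group means of the medians. In the left panel the chow LiFKO libraries (0.39 to 0.51) lie above the chow Control libraries (-0.12 to 0.09), while in the right panel LiFKO and Control libraries overlap on each diet and AMLN Control replicate 3 (0.05) lies below its group.

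On chow, most mitochondrial members were expressed more strongly in livers without Flcn. In chow LiFKO livers 16 members rose (background 12.5% of all genes) and 3 fell (background 13.2%) against chow Control livers, at a limma adjusted p under 0.05. The mean levels of the mitochondrial members lay at percentiles 92.8 (Slc25a20) to 99.1 (Cpt1a) of all genes. The backgrounds cover genes of all levels, and the part of expression level in the counts was not tested. Of the 18 mitochondrial members 11 rose and 0 fell (unadjusted p under 0.05: 13 higher and 0 lower), with a median difference of 0.42 log2. The share of all genes at an unadjusted p under 0.05 was not counted, so such counts have no background here or below. Of the 14 peroxisomal and omega members 2 rose and 1 fell, with a median of 0.22, and of the 8 others 3 rose and 2 fell; the median over all genes was -0.05.

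Cpt1a, the rate-limiting carnitine palmitoyltransferase of the outer mitochondrial membrane, had log2 values of 15.92, 16.19 and 16.02 in chow LiFKO livers and 15.18, 15.34 and 15.28 in chow Control livers. The groups did not overlap, and Cpt1a rose by 0.78 ± 0.15 log2 (SE, 3 libraries a group), about 1.7-fold (adjusted p = 0.00191). The 2 later steps of the shuttle did not share this: Cpt2, the inner-membrane transferase, and Slc25a20, the carnitine-acylcarnitine carrier, both had differences of 0 log2 with SEs of 0.15 and 0.16.

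Within the mitochondrial spiral, both subunits of the trifunctional protein, which carries out the last steps on long chains, rose together. Hadha had log2 values of 15.34, 15.38 and 15.43 in chow LiFKO livers and 14.71, 14.78 and 14.8 in chow Control livers, with every LiFKO library above every Control library (difference 0.62 ± 0.09, adjusted p = 0.000142). Hadhb, the thiolase subunit, rose by 0.65 ± 0.11 (adjusted p = 0.000779). Acads, the short-chain acyl-CoA dehydrogenase, had 13.7, 13.82 and 13.85 in chow LiFKO and 13.09, 13.08 and 13.14 in chow Control livers (0.69 ± 0.1, adjusted p = 0.000198), again without overlap. Eci1, the isomerase for double bonds at odd positions, rose by 0.79 ± 0.13 (adjusted p = 0.00058), Acadl, the long-chain dehydrogenase, by 0.68 ± 0.12 (adjusted p = 0.000707) and Acadvl, the very-long-chain dehydrogenase, by 0.38 ± 0.1 (adjusted p = 0.00999). The other 4 members of the spiral were not called: the medium-chain dehydrogenase Acadm differed by 0, the dehydrogenase Hadh by 0.31, the thiolase Acaa2 by -0.16 and the dienoyl-CoA reductase Decr1 by 0.41 log2 (adjusted p of 1, 0.1, 0.201 and 0.0732). With AMLN Control replicate 3 out of the shared spread, Hadh and Decr1 were called (adjusted p of 0.0479 and 0.0405 by limma).

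Of the electron transfer members 2 of 3 rose, as did both ketone body members. Etfdh, which hands electrons from the flavoprotein to ubiquinone, had log2 values of 14.53, 14.61 and 14.63 in chow LiFKO and 13.81, 13.97 and 14.09 in chow Control livers (0.63 ± 0.13, adjusted p = 0.00194). Etfa, the alpha subunit of the flavoprotein, had 14.84, 14.95 and 14.8 in chow LiFKO against 14.41, 14.43 and 14.5 in chow Control livers (0.42 ± 0.08, adjusted p = 0.00197). For both genes the groups stood apart, whereas Etfb, the beta subunit, differed by -0.1 log2 (adjusted p = 0.467). Bdh1, which reduces acetoacetate to beta-hydroxybutyrate, had 14.15, 14.15 and 14.26 in chow LiFKO and 13.57, 13.71 and 13.88 in chow Control livers (0.46 ± 0.13, adjusted p = 0.0159). Acat1, the mitochondrial acetoacetyl-CoA thiolase, had 14.81, 14.91 and 15.1 against 14.37, 14.5 and 14.7 (0.42 ± 0.14, adjusted p = 0.0345). Both stood above the Control range, but single libraries carried the calls. Leaving out chow LiFKO replicate 3 or the first chow Control library ended that of Bdh1 (0.39 to 0.54 over libraries left out). That of Acat1 was lost without any of chow Control replicates 1 and 2 and chow LiFKO replicates 2 and 3 (0.34 to 0.51).

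Among the peroxisomal and omega members on chow the largest called change was a decrease. Acnat1, a peroxisomal enzyme that conjugates fatty acids with amino acids, had log2 values of 8.85, 8.73 and 9.18 in chow LiFKO and 10.92, 11.11 and 11.15 in chow Control livers, far apart, and fell by 2.14 log2 (SE 0.16, about 4.4-fold, adjusted p = 4.31e-07). Acnat2, its near-identical neighbour, is no member and fell as well (-1.9, adjusted p = 0.00127). How reads that match both copies were counted is not given in the sources used here, so the separate values are uncertain. Cyp4a12a, an omega-hydroxylase, had 14.89, 14.64 and 15.49 in chow LiFKO and 13.25, 13.76 and 14.31 in chow Control livers and rose by 1.24 ± 0.25 (adjusted p = 0.00213). Its relative Cyp4a10 had 16.41, 16.22 and 16.77 in chow LiFKO against 14.15, 15.51 and 15.65 in chow Control livers, without overlap but with a wide Control spread, and was not called (1.36 ± 0.53, adjusted p = 0.0734). Cyp4a10 was called with AMLN Control replicate 3 out of the shared spread (adjusted p = 0.00882 by limma). The Cyp4a genes also form a family of close copies with the same uncertainty.

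The peroxisomal spiral itself showed little on chow. Decr2, the peroxisomal dienoyl-CoA reductase, was the only 1 of 5 members that rose, with 14.03, 14.1 and 14.03 in chow LiFKO and 13.58, 13.64 and 13.68 in chow Control livers (0.42 ± 0.13, adjusted p = 0.0264), although the call was lost without any single library of the comparison but chow Control replicate 3 (0.39 to 0.45). Ehhadh, the bifunctional enzyme, had 14.65, 14.51 and 14.99 in chow LiFKO and 14.09, 14.41 and 14.79 in chow Control livers, which overlap (0.29 ± 0.25, adjusted p = 0.444). Hsd17b4, the other bifunctional enzyme, differed by 0.15, and the thiolases Acaa1a and Acaa1b by -0.11 and 0.15. The transporters Abcd2 and Abcd3 differed by 0.45 and -0.08, and the proliferation factor Pex11a by 0.54. The CoA diphosphatase Nudt7 differed by 0.07, Cyp4a14 by 0.28 and the fatty aldehyde dehydrogenase Aldh3a2 by -0.08 log2, and none of these was called. Leaving out chow Control replicate 3 brought Abcd2 to 0.91, a call. Pex11a was called with AMLN Control replicate 3 out of the shared spread (adjusted p = 0.0186 by limma). Acaa1a and Acaa1b are close copies of each other, so their separate values are uncertain too.

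Of the PPARα targets outside both classes, Pdk4, the kinase that shuts down pyruvate dehydrogenase, had log2 values of 10.99, 10.06 and 9.65 in chow LiFKO and 7.05, 7.99 and 7.38 in chow Control livers, wholly apart (2.76 ± 0.62, about 6.8-fold, adjusted p = 0.00461). Vnn1, a pantetheinase of the CoA pathway, had 13.34, 13.38 and 13.5 against 11.25, 12 and 12.48 (1.49 ± 0.35, adjusted p = 0.00548), also without overlap. Angptl4, an inhibitor of lipoprotein lipase, differed by -0.27 (adjusted p = 0.203). Eci2 fell by 0.43 (SE 0.12, adjusted p = 0.0165), with 13.62, 13.69 and 13.49 in chow LiFKO and 13.85, 14.13 and 14.12 in chow Control livers. Of the synthetases, Acsl3, which sits on lipid droplets and the endoplasmic reticulum, had 9.45, 9.7 and 9.4 in chow LiFKO against 10.5, 10.02 and 9.91 in chow Control livers and fell by 0.62 (SE 0.21, adjusted p = 0.0398). Acsl4, which prefers arachidonate, rose by 0.73 ± 0.25 (adjusted p = 0.0419). The Acsl3 call was lost without any of chow LiFKO replicates 1 and 3 and chow Control replicates 1 and 2 (-0.74 to -0.45). That of Acsl4 was lost without any library of the comparison but chow Control replicate 1 (0.55 to 0.87), and that of Eci2 without chow LiFKO replicate 3, chow Control replicate 2 or chow Control replicate 3 (-0.52 to -0.38). Acsl1 and Acsl5 differed by 0.34 and 0.14 and were not called.

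Libraries with the same replicate number deviated together on chow, and with the number as a block some calls on chow changed. With 1 block shared by all groups the adjusted p was 0.0583 for Acsl4 and 0.0514 for Acat1, and 14 members rose and 3 fell. With a block within each diet it was 0.0383 and 0.00706. There 19 members rose and 3 fell, among them Hadh (0.0433), Decr1 (0.00961) and Pex11a (0.0237).

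**Figure D2:**
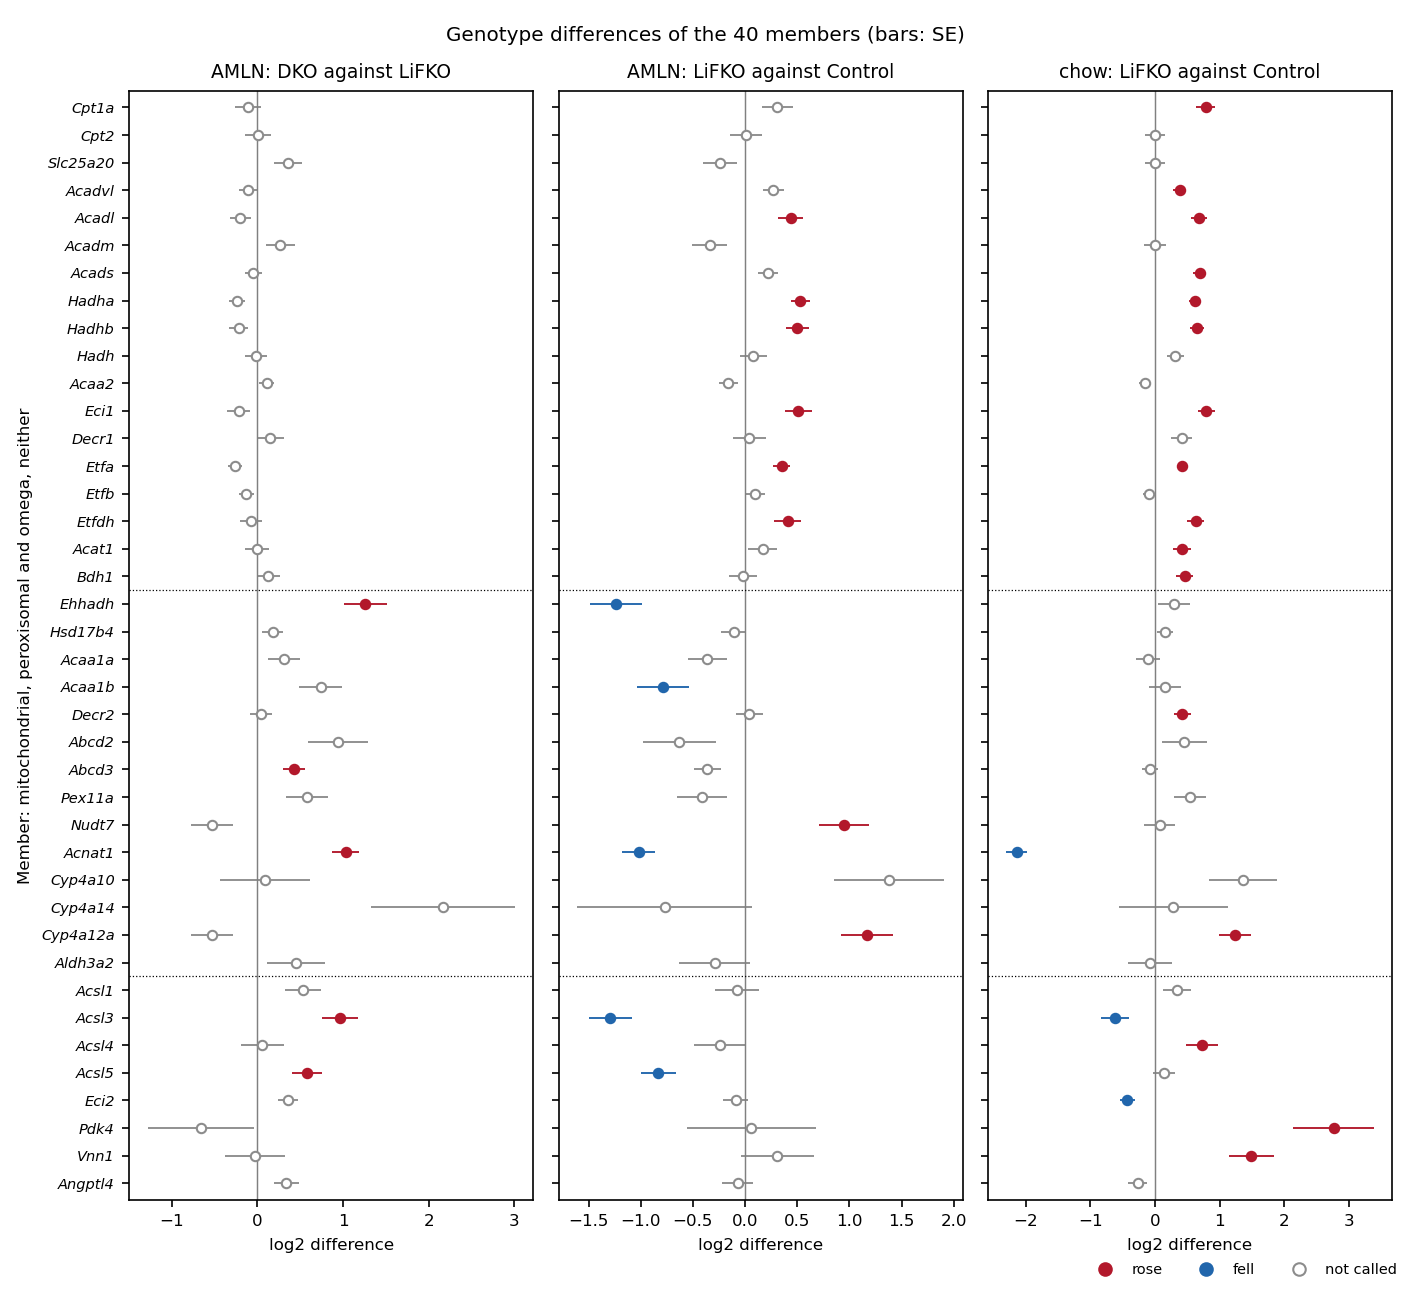
Log2 difference of each of the 40 members in DKO against LiFKO livers on AMLN diet (left), LiFKO against Control livers on AMLN diet (middle) and LiFKO against Control livers on chow (right); bars are SEs, filled points are members that rose (red) or fell (blue) at an adjusted p under 0.05, and open points were not called. Filled red points crowd the mitochondrial rows on chow (11 of 18), and on AMLN diet the Ehhadh and Acaa1b points are blue in LiFKO livers while Ehhadh is red in DKO livers.

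On AMLN diet, 8 members rose (background 10.1%) and 5 fell (background 9.63%) in LiFKO against Control livers, with both directions among the peroxisomal members. Of the mitochondrial members 6 rose and 0 fell (unadjusted p under 0.05: 7 higher and 0 lower; median difference 0.19 log2), and of the peroxisomal and omega members 2 rose and 3 fell (median -0.36). Among the other 8, 0 rose and 2 fell, and the median over all genes was -0.02. Without AMLN Control replicate 3, 5 members rose (8.9% of all genes) and 11 fell (8.45% of all genes). These were 3 and 2 of the mitochondrial members (median 0.13), 2 and 7 of the peroxisomal and omega members (median -0.58), and 0 and 2 of the others.

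The mitochondrial genes that rose on AMLN diet were 6 of those that rose on chow. Hadha had log2 values of 15.56, 15.34 and 15.4 in AMLN LiFKO livers and 14.97, 14.99 and 14.74 in AMLN Control livers, and every LiFKO library was above every Control library (0.53 ± 0.09, adjusted p = 0.000656). Etfa had 15.03, 14.84 and 14.97 in AMLN LiFKO against 14.51, 14.7 and 14.59 in AMLN Control livers (0.35 ± 0.08, adjusted p = 0.00875), and Hadhb rose by 0.5 ± 0.11 (adjusted p = 0.00657). These 3 calls held without each library in turn, that of AMLN Control replicate 3 included. Acadl (0.44, adjusted p = 0.0164), Eci1 (0.51, adjusted p = 0.0152) and Etfdh (0.41, adjusted p = 0.0316) were called with all libraries but not without AMLN Control replicate 3, where the differences were 0.32, 0.33 and 0.26 log2. These calls were also lost without AMLN LiFKO replicate 1, and those of Acadl and Etfdh without AMLN LiFKO replicate 3.

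Cpt1a, by contrast, had 16.13, 15.8 and 15.63 in AMLN LiFKO and 15.83, 15.59 and 15.21 in AMLN Control livers, which overlap (0.31 ± 0.15, adjusted p = 0.187; 0.14 without AMLN Control replicate 3). Acads (0.22), Acadvl (0.27), Bdh1 (-0.02) and Acat1 (0.17) were not called either, with or without that library (0.12, 0.21, -0.13 and 0.03 without it). Bdh1 values were 14.72, 14.44 and 14.33 in AMLN LiFKO and 14.65, 14.6 and 14.28 in AMLN Control livers, above the chow Control range in both groups. Cpt2 (0.01), Slc25a20 (-0.24), Acadm (-0.34), Hadh (0.08), Acaa2 (-0.16), Decr1 (0.04) and Etfb (0.1) completed the class without a call, and without AMLN Control replicate 3 Slc25a20 (-0.46) and Acadm (-0.54) fell. Without it the uncalled differences of Cpt2 (-0.19), Hadh (-0.06) and Decr1 (-0.12) turned negative.

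Of the 5 members of the peroxisomal spiral 2 fell and 0 rose. Ehhadh had log2 values of 14.48, 13.9 and 14.2 in AMLN LiFKO livers and 15.71, 15.81 and 14.78 in AMLN Control livers, and all LiFKO libraries lay below all Control libraries (difference -1.24 ± 0.25, about 2.4-fold lower, adjusted p = 0.00278; -1.56 without AMLN Control replicate 3). Acaa1b had 16.62, 16.39 and 16.23 in AMLN LiFKO against 17.56, 17.63 and 16.43 in AMLN Control livers, where only the low replicate 3 overlaps, and fell by 0.79 (SE 0.25, adjusted p = 0.0354); without that library the difference was -1.18, and the call was lost without any of AMLN LiFKO replicates 2 and 3 and AMLN Control replicates 1 and 2 (at the smallest, -0.57). Acaa1b was picked for values per library after its values were seen. Abcd3, the 70-kilodalton peroxisomal membrane transporter for acyl-CoAs, had 15.21, 15.04 and 14.77 against 15.53, 15.36 and 15.2 in overlapping groups and was not called (-0.36 ± 0.13, adjusted p = 0.0611), but fell without AMLN Control replicate 3 (-0.44) or AMLN LiFKO replicate 1. Acaa1a (-0.36 with and -0.57 without AMLN Control replicate 3), Pex11a (-0.41 and -0.76) and Aldh3a2 (-0.29 and -0.78) likewise fell without that library alone. Hsd17b4 (-0.11), Decr2 (0.04) and Abcd2 (-0.63) were not called, with or without it (-0.27, -0.1 and -0.59 without it).

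Acnat1 had 10.05, 9.93 and 9.46 in AMLN LiFKO and 11.06, 10.72 and 10.72 in AMLN Control livers and fell by 1.02 (SE 0.16, adjusted p = 0.000399), without overlap. Nudt7, which breaks down CoA in peroxisomes, had 14.69, 14.43 and 14.94 in AMLN LiFKO against 13.68, 13.36 and 14.18 in AMLN Control livers and rose by 0.95 ± 0.24 (adjusted p = 0.0119), a call lost without AMLN LiFKO replicate 3 or AMLN Control replicate 2 (0.76 to 1.17). For both genes the groups stood apart. Cyp4a12a had 14.43, 14.33 and 14.66 against 13.34, 13 and 13.57 and rose by 1.17 ± 0.25 (adjusted p = 0.00405). Cyp4a10 had 16.09, 15.35 and 15.3 in AMLN LiFKO and 14.75, 15.2 and 12.64 in AMLN Control livers; the groups stand apart, but the Control libraries spread over more than the difference, and it was not called (1.38 ± 0.53, adjusted p = 0.0824). Cyp4a14 differed by -0.77 ± 0.84 and was not called. AMLN Control replicate 3 was far the lowest of its group for both: without it Cyp4a10 differed by 0.6 (adjusted p = 0.31) and Cyp4a14 by -1.92 (adjusted p = 0.0644). Without AMLN Control replicate 2, Cyp4a10 was called.

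Of the synthetases, Acsl3 had 9.65, 9.41 and 9.52 in AMLN LiFKO and 10.84, 10.56 and 11.03 in AMLN Control livers, wholly apart, and fell by 1.29 (SE 0.21, about 2.4-fold, adjusted p = 0.000596). Acsl5, which serves mitochondria and the endoplasmic reticulum, had 14.64, 14.37 and 14.12 against 15.36, 15.15 and 15.1, also apart, and fell by 0.83 (SE 0.17, adjusted p = 0.00359). Both calls held without each library in turn. Acsl1 (-0.08), Acsl4 (-0.24), Eci2 (-0.09), Pdk4 (0.06), Vnn1 (0.31) and Angptl4 (-0.07) were not called. Pdk4 values were 9.67, 9.86 and 8.23 in AMLN LiFKO and 10.17, 9.95 and 7.45 in AMLN Control livers, spread widely in both groups. Without AMLN Control replicate 3 the differences of Pdk4 (-0.81) and Vnn1 (-0.15) turned negative and those of Acsl1 and Eci2 were -0.35 and -0.18, still not called, and Acsl4 differed by -0.05.

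Whether the effect of Flcn loss differed between diets was tested directly, as the difference on AMLN diet minus the difference on chow. 1 member was called upward (background 0.282%) and 0 downward (background 0.76%; unadjusted p under 0.05: 2 higher and 12 lower). The called member was Acnat1 (1.12 ± 0.22, adjusted p = 0.0303), which fell less on AMLN diet; the call was lost without limma's trend and without any of AMLN LiFKO replicates 1 and 2, AMLN Control replicate 2, chow LiFKO replicates 1 and 2 and chow Control replicates 2 and 3 (1 to 1.3). Ehhadh (-1.52, adjusted p = 0.0525), Acsl5 (-0.96, adjusted p = 0.0731) and Pdk4 (-2.7, adjusted p = 0.153) were not called. Without AMLN Control replicate 3, 6 members were called downward (Acads -0.57, Ehhadh -1.85, Acaa1b -1.33, Pex11a -1.3, Pdk4 -3.57 and Vnn1 -1.65) against 1.61% of all genes, so whether these are called depends on that library; Ehhadh was also called without chow Control replicate 3.

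The DKO livers address which differences on AMLN diet remain in mice that lack Tfe3 as well. These mice came from a line of their own, so Tfe3 loss and mouse line cannot be told apart here. Flcn itself was also lower in AMLN DKO than in AMLN LiFKO livers (-0.92, adjusted p = 0.00242 by limma), and its part in the differences was not tested. Against AMLN LiFKO livers, 5 members rose (background 5.05%) and 0 fell (background 5.97%; unadjusted p under 0.05: 13 higher and 3 lower). None of the 18 mitochondrial members was called (unadjusted p under 0.05: 1 higher and 2 lower; median difference -0.06 log2), 3 of the 14 peroxisomal and omega members rose (median 0.44) and 2 of the 8 others rose; the median over all genes was 0.02. All 5 belong to the peroxisomal and synthetase members: Acsl3, Acsl5, Ehhadh, Abcd3 and Acnat1.

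Ehhadh had log2 values of 15.45, 15.28 and 15.62 in AMLN DKO livers and 14.48, 13.9 and 14.2 in AMLN LiFKO livers, and every DKO library stood above every LiFKO library (1.26 ± 0.25, about 2.4-fold, adjusted p = 0.0045). Acnat1 had 10.85, 10.72 and 10.95 in AMLN DKO against 10.05, 9.93 and 9.46 in AMLN LiFKO livers (1.03 ± 0.16, adjusted p = 0.000802). Acsl3 had 10.91, 10.59 and 9.99 against 9.65, 9.41 and 9.52 (0.97 ± 0.21, adjusted p = 0.00757). For these 3 genes the groups stood apart and the calls held without each library in turn.

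Abcd3 had 15.44, 15.49 and 15.39 in AMLN DKO and 15.21, 15.04 and 14.77 in AMLN LiFKO livers (0.43 ± 0.13, adjusted p = 0.0395), and Acsl5 had 14.88, 15.1 and 14.89 against 14.64, 14.37 and 14.12 (0.58 ± 0.17, adjusted p = 0.0446). Both were apart from LiFKO, but lost the call without any DKO library or without AMLN LiFKO replicate 2 or 3 (0.31 to 0.53 for Abcd3 and 0.46 to 0.71 for Acsl5). Acaa1b, with 17.21, 17.28 and 16.99 in AMLN DKO against 16.62, 16.39 and 16.23 in AMLN LiFKO livers, did not overlap but was not called (0.74 ± 0.25, adjusted p = 0.0693). With AMLN Control replicate 3 out of the shared spread, Acaa1b, Pex11a (0.58), Cyp4a14, Acsl1 (0.53) and Eci2 (0.36) were called as well, which gives the 10 members above.

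For some mitochondrial members the groups stood apart, in 1 or the other direction, without a call. Hadha had 15.23, 15.15 and 15.18 in AMLN DKO and 15.56, 15.34 and 15.4 in AMLN LiFKO livers, apart but not called (-0.24 ± 0.09, adjusted p = 0.0927), and Etfa had 14.79, 14.65 and 14.62 against 15.03, 14.84 and 14.97 (-0.26 ± 0.08, adjusted p = 0.0626). Both fell when libraries were weighted, and Etfa also without AMLN DKO replicate 1. Slc25a20 differed by 0.36 (adjusted p = 0.176) and was called with a block within each diet. Cpt1a differed by -0.11 ± 0.15, Etfdh by -0.07 ± 0.13, Hadhb by -0.22 ± 0.11 and Eci1 by -0.22 ± 0.13. Nudt7 and Cyp4a12a, the 2 peroxisomal and omega members that rose in AMLN LiFKO livers, both differed by -0.53 in DKO and were not called. Angptl4 (0.34) was called without AMLN LiFKO replicate 2 alone. A difference that misses the threshold does not show that the groups were alike.

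Against AMLN Control livers, 0 members rose (background 0.449%) and 0 fell (background 0.203%) in AMLN DKO livers by limma. At an unadjusted p under 0.05 7 were higher and 0 lower, without a count over all genes to set beside them. The medians were 0.16 log2 for the mitochondrial and 0.12 for the peroxisomal and omega members, and 0.04 and -0.05 without AMLN Control replicate 3. The unadjusted 7 were Hadha (0.29), Hadhb (0.28), Eci1 (0.29), Etfdh (0.34), Eci2 (0.27), Cyp4a10 (1.47) and Cyp4a12a (0.64). With AMLN Control replicate 3 left out they differed by 0.21, 0.15, 0.11, 0.19, 0.18, 0.69 and 0.77 in the same order. Ehhadh differed by 0.02 ± 0.25, Acnat1 by 0.01 ± 0.16 and Acaa1b by -0.05 ± 0.25, and by -0.31, -0.05 and -0.43 without that library. This comparison shares its libraries with those above, so its values stand beside theirs and are no further evidence.

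**Figure D3:**
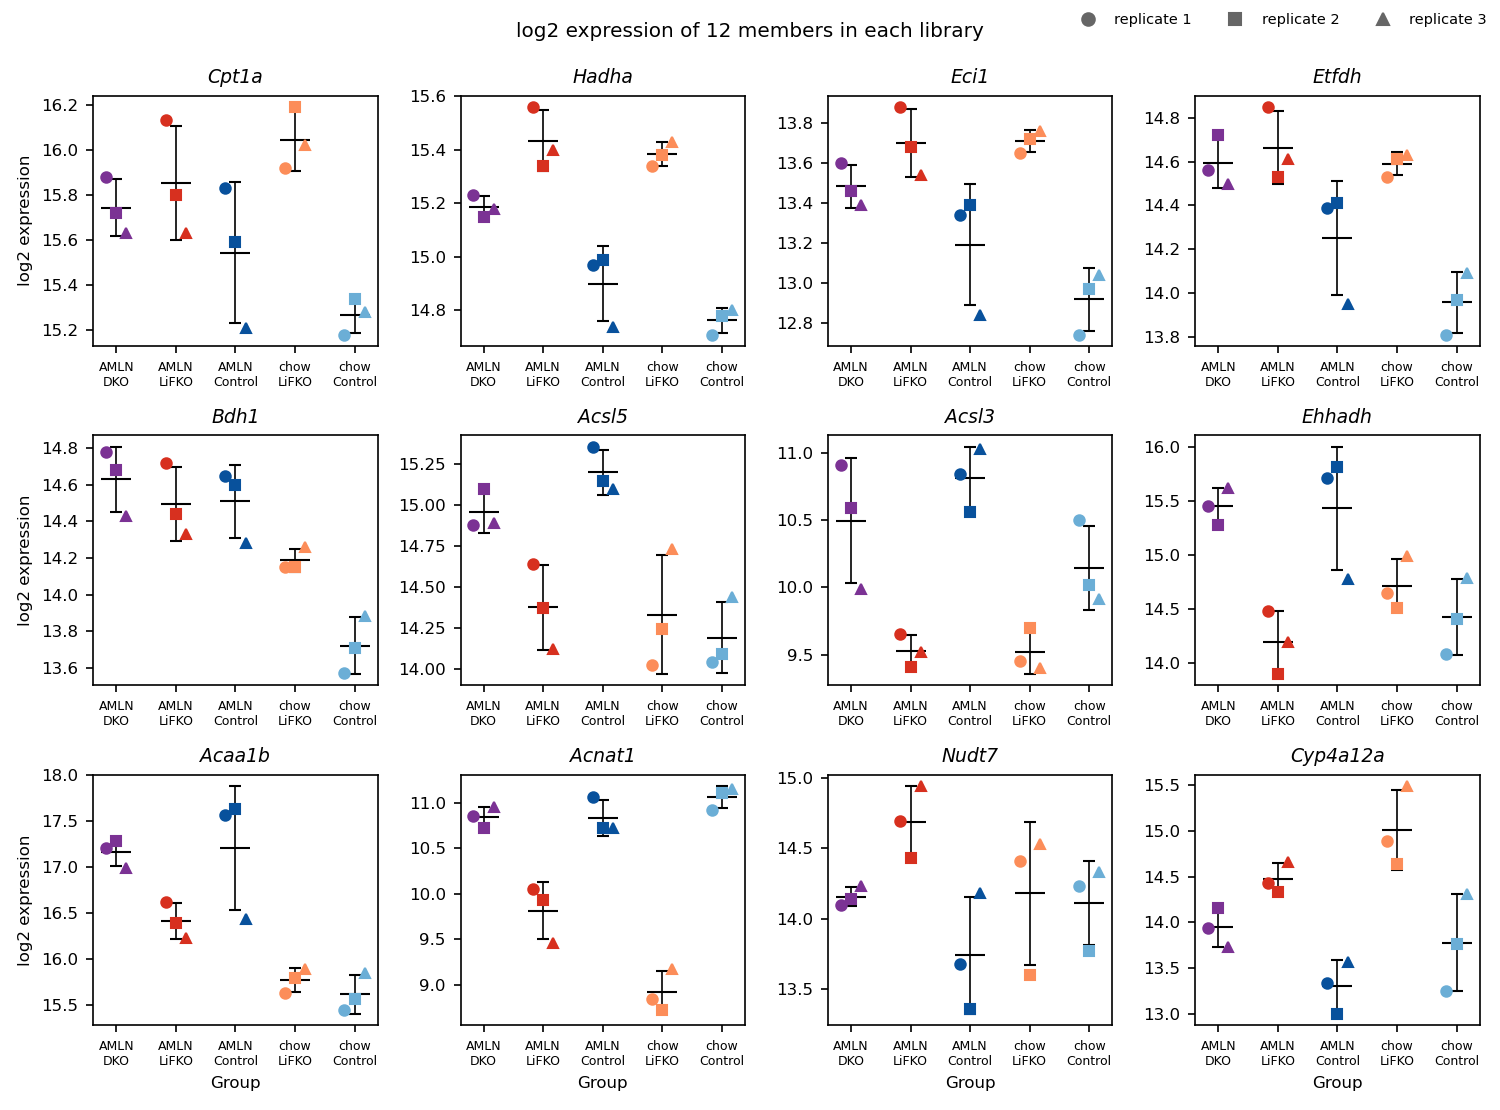
Log2 expression of 12 members in each library of the 5 groups (circle, square and triangle for replicates 1, 2 and 3), with group mean and SD (n = 3). Hadha sits at 15.34 to 15.56 in both LiFKO groups and at 14.71 to 14.99 in both Control groups, whereas Ehhadh and Acnat1 in AMLN DKO livers lie with AMLN Control and above AMLN LiFKO livers.

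In AMLN Control against chow Control livers 15 members rose (background 11.2%) and 2 fell (background 11.6%). 7 of the 14 peroxisomal and omega members rose and 0 fell (unadjusted p under 0.05: 8 higher and 0 lower; median 0.39 log2), 5 of the 18 mitochondrial members rose and 0 fell (8 higher and 0 lower; median 0.28), and of the other 8, 3 rose and 2 fell. Without AMLN Control replicate 3, 23 rose (11.6% of all genes) and 1 fell (12% of all genes), with 9 peroxisomal and omega and 10 mitochondrial members among those that rose. Among the 30 peroxisomal and omega genes outside the members, 4 rose and 7 fell (median -0.08). Cell type markers moved with the diet as well: 1 of 11 hepatocyte markers rose and 5 fell (median -0.54), 5 of 9 stellate cell and fibrosis markers rose, and 3 of 11 macrophage markers rose. Of the other lists, 1 of 8 endothelial, 1 of 5 cholangiocyte and 1 of 1 adipocyte markers rose, the last by 4.44 log2 from a low chow Control level (3.73 to 4.51). Erythroid (0 of 6) and lymphocyte (0 of 1) markers were not called. The part of the markers in these differences was not tested.

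Acaa1b had log2 values of 17.56, 17.63 and 16.43 in AMLN Control livers and 15.44, 15.56 and 15.85 in chow Control livers, apart even with the low library (1.59 ± 0.25, about 3-fold, adjusted p = 0.000866). Abcd2, a transporter of very long acyl-CoAs, rose by 1.79 ± 0.35 (adjusted p = 0.00326) without overlap, and both calls held without each library in turn. Ehhadh rose by 1 ± 0.25 (adjusted p = 0.0115), Acaa1a by 0.64 (adjusted p = 0.0283), Hsd17b4 by 0.4 (adjusted p = 0.0326), Abcd3 by 0.38 (adjusted p = 0.0406) and Aldh3a2 by 1.01 (adjusted p = 0.0455). These 5 calls were lost without AMLN Control replicate 1 or 2 or chow Control replicate 1, and all but that of Ehhadh without chow Control replicate 2. Over single libraries left out the differences ran from 0.81 to 1.33 for Ehhadh, 0.44 to 0.85 for Acaa1a, 0.28 to 0.56 for Hsd17b4, 0.3 to 0.47 for Abcd3 and 0.69 to 1.5 for Aldh3a2.

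Both ketone body members rose with the diet. Bdh1 was higher by 0.79 ± 0.13 (adjusted p = 0.00116) and Acat1 by 0.59 ± 0.14 (adjusted p = 0.00825), and both calls held without each library in turn. Hadh (0.59, adjusted p = 0.00626), Acads (0.37, adjusted p = 0.0173) and Decr1 (0.47, adjusted p = 0.0439) were the other mitochondrial members that rose, while Hadha (0.14), Hadhb (0.13) and Cpt1a (0.28) were not called. With AMLN Control replicate 3 left out, Hadha and Hadhb differed by 0.22 and 0.26, and Cpt1a rose by 0.44 (adjusted p = 0.0396). The omega-hydroxylases Cyp4a10 (-0.91), Cyp4a14 (-1.15) and Cyp4a12a (-0.47) had negative differences and were not called; without that library they were -0.13, 0 and -0.61. Acsl5 rose by 1.01 (adjusted p = 0.00159), Acsl3 by 0.67 (adjusted p = 0.0335) and Vnn1 by 1.3 (adjusted p = 0.0156), Eci2 fell by 0.44 (adjusted p = 0.0174) and Angptl4 fell by 0.76 (adjusted p = 0.00288). The calls of Acsl5 and Angptl4 held without each library, while the other 5 depended on single libraries. Those of Acads (0.31 to 0.47) and Decr1 (0.33 to 0.63) were lost without replicate 1 or 2 of either group. Leaving out AMLN Control replicate 1 or 2 or the first chow Control library ended that of Vnn1 (0.97 to 1.77). Leaving out AMLN Control replicate 1 or 3 or chow Control replicate 2 or 3 ended that of Acsl3 (0.55 to 0.85). That of Eci2 (-0.53 to -0.35) ended without AMLN Control replicate 3 or chow Control replicate 2 or 3. Pdk4 differed by 1.72 (adjusted p = 0.06) and rose by 2.59 without AMLN Control replicate 3 (adjusted p = 0.00252); it was also called with library weights and with either replicate block.

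AMLN LiFKO against chow LiFKO livers had 1 member that rose (background 1.58%), Acnat1 (0.89, adjusted p = 0.0101), and 1 that fell (background 2.16%), Angptl4 (-0.56, adjusted p = 0.0484), a call lost without any library of the comparison but AMLN LiFKO replicate 2 (-0.75 to -0.39). The medians were 0.06 log2 for the mitochondrial and 0.12 for the peroxisomal and omega members. Acaa1b differed by 0.65 (adjusted p = 0.15), Abcd2 by 0.71 (adjusted p = 0.264), Bdh1 by 0.31 (adjusted p = 0.186) and Ehhadh by -0.52 (adjusted p = 0.246). Each diet comparison shares its libraries with the LiFKO comparisons, and the difference between the diet effects is the one tested above.

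**Figure D4:**
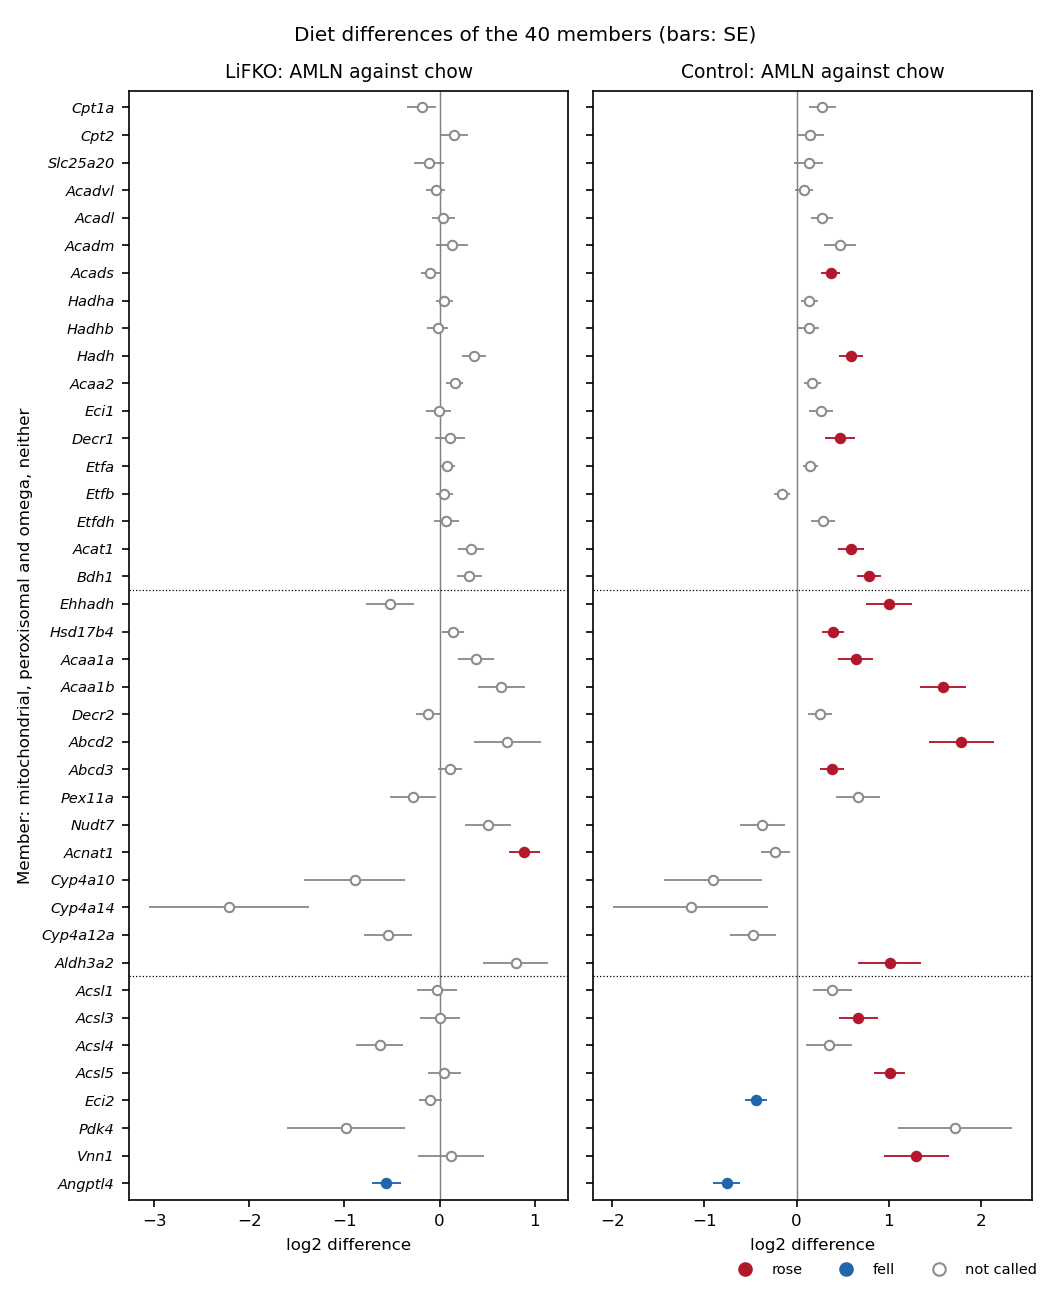
Log2 difference of each of the 40 members between AMLN diet and chow in LiFKO livers (left) and in Control livers (right); bars are SEs, red points rose, blue points fell, and open points were not called. In LiFKO livers 2 points are filled, and in Control livers 17 are, Abcd2 (1.79) and Acaa1b (1.59) with the largest values among them.

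Further genes of the pathway, from lists chosen with earlier results of these data known, gave a mixed picture. Of 22 measured mitochondrial genes outside the members (of 24 listed), 0 rose (background 5.05% of all genes) and 4 fell (5.97%) in DKO against LiFKO livers. In LiFKO against Control livers 5 rose (10.1%) and 1 fell (9.63%) on AMLN diet, and 6 rose (12.5%) and 1 fell (13.2%) on chow. The same backgrounds apply to the lists below. The acyl-CoA dehydrogenase relatives Acad10 (-0.57, 1.14 and 1.58 log2 in the same order of comparisons) and Acad12 (-0.94, 0.98 and 1.76) and the thioesterase Acot13 (-0.54, 0.46 and 0.79) were called in all 3. Of 30 measured peroxisomal and omega genes outside the members (of 32), 3 rose and 3 fell, 5 rose and 4 fell, and 7 rose and 9 fell in those comparisons. The peroxisomal oxidases went opposite ways: Acox3, for branched chains, differed by -0.67, 0.8 and 1.1, and Acox2, of bile acid synthesis, by 0.54, -1.06 and -0.65, all called. Of 14 peroxins, which build peroxisomes (of 16 listed), 1 rose and 0 fell, 1 rose and 1 fell, and 0 rose and 2 fell.

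Among 22 regulators, 1 rose (background 5.05% of all genes) and 2 fell (5.97%) in DKO against LiFKO livers. In LiFKO against Control livers 8 rose (10.1%) and 1 fell (9.63%) on AMLN diet, and 6 rose (12.5%) and 1 fell (13.2%) on chow. Ppargc1a, the coactivator of mitochondrial genes, had log2 values of 9.95 to 10.67 in AMLN DKO, 11.18 to 11.36 in AMLN LiFKO, 8.89 to 9.26 in AMLN Control, 11.64 to 12.26 in chow LiFKO and 9.32 to 10.18 in chow Control livers. It rose in LiFKO by 2.18 on AMLN diet (adjusted p = 1.63e-05) and by 2.23 on chow (adjusted p = 8.45e-06). It fell in DKO against LiFKO livers (-0.97, adjusted p = 0.013), and was still higher in DKO than in AMLN Control livers (1.21, adjusted p = 0.0284). Ppara itself rose by 0.49 on AMLN diet (adjusted p = 0.00997) and by 0.48 on chow (adjusted p = 0.0093) in LiFKO, and differed by -0.12 in DKO against LiFKO livers. Acacb, which makes the malonyl-CoA that inhibits CPT1, had 13.16 to 13.32 in AMLN DKO, 14.23 to 14.86 in AMLN LiFKO, 13 to 13.16 in AMLN Control, 14.78 to 14.93 in chow LiFKO and 10.38 to 11.17 in chow Control livers. It rose in LiFKO by 1.43 on AMLN diet (adjusted p = 6.32e-05) and by 4.01 on chow (adjusted p = 4.39e-09), and it fell by 1.31 in DKO against LiFKO livers (adjusted p = 0.000243).

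TFE3 peaks lay at most of the 40 genes, as they did at most genes of the table in LiFKO livers. The peak lists are the authors' pools of libraries (4 a group on chow, 3 on FPC diet), so peaks have no replicate values, and scores are the authors' own and are compared within a list only. In the headers of the FPC LiFKO, FPC Control+1c and FPC Control lists of TFE3, 1 of 3 pooled libraries is named as an input and the background as a TFE3 ChIP. In the HA list of LiFKO+1c 1 of 3 is named as TFE3. Results from these lists rest on names that go against their labels. The FPC LiFKO+1c list of TFE3 and the HA list of Control+1c show no such mismatch. The pooled libraries could not be read from the headers of the chow lists, so their names were not checked. A gene was counted as having a peak when a peak midpoint lay within 5 kb of the gene.

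In the chow LiFKO list (26445 peaks) 37 of the 40 members had a TFE3 peak (background 69.1% of all genes), and in the chow Control list (11385 peaks) 26 had one (background 42.7%). On FPC diet the counts were 39 in LiFKO+1c (background 75.3%), 37 in LiFKO (background 66.2%), 18 in Control+1c (background 37.7%) and 23 in Control livers (background 36.5%). The members are also longer than other genes, with a median of 26909.5 bases against 19608, which gives a peak more room, and the part of length was not tested. 24 members had a peak in each of the chow LiFKO, chow Control and FPC LiFKO+1c lists of TFE3 (background 40.3%). For HA-tagged SREBP-1c, 7 members had a peak in LiFKO+1c (background 5.89%) and 6 in Control+1c livers (background 7.72%), among them the synthetases Acsl1, Acsl4 and Acsl5 in both.

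On chow 16 of 18 mitochondrial and 14 of 14 peroxisomal and omega members had a peak in the LiFKO list (background 69.1%). In the Control list 12 and 9 had one (background 42.7%). Of the 16 members that rose in chow LiFKO livers 15 had a chow LiFKO peak, and of the other 24, 22 had one. 25 members had a peak in both chow lists, 12 in the LiFKO list alone and 1, Acaa2, in the Control list alone. The share of all genes was not counted for these groups, nor for the genes that rose, so these counts have no background. Acsl3, Acaa2 and Etfdh had no chow LiFKO peak. Of the 30 members whose strand RefSeq gives, 20 had a chow LiFKO peak (background 53.4% of 9914 genes with a strand) and 13 a chow Control peak (background 27.2%) within 1 kb of the start.

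Single sites, on build mm9, show the range. At Pdk4 the highest-scoring peak of the chow LiFKO list lay at chr6:5448934-5449120, 2718 bases before the start, with a score of 93.3, above 99.7% of that list. The chow Control list had one 2705 bases before the start with a score of 46.3, above 98.2% of its own list. At Cyp4a10 a chow LiFKO peak at chr4:115186593-115186779, 4183 bases outside the gene, scored 66 (98.6% of the list lower), and the chow Control list had one there as well. At Acadl the peak lay inside the gene, 471 bases from the start, with a score of 50.3 (95.7%), and at Etfa 196 bases inside, with 59.6 (97.9%).

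Hadha and Hadhb lie head to head, 85 bases apart, and their start windows share 228 bases, so the Hadha sequence shown above belongs in large part to both. A single chow LiFKO peak at chr5:30481565-30481751, with a score of 44.1 (93.3%), had its midpoint 44 bases inside Hadha and 130 bases before Hadhb, and the chow Control list had no peak there. Both genes rose in LiFKO livers on both diets. Ehhadh had a chow LiFKO peak at chr16:21788005-21788191, 181 bases before its start, with a score of 22.9 (63.9%), and a chow Control peak at nearly the same place with a score of 14.1. Its level fell in AMLN LiFKO livers and was not called on chow. Aldh3a2 had 3 chow LiFKO peaks, the highest-scoring of them 31117 bases into the gene (score 34.6) and another 173 bases inside the start (score 23.1). Acnat1, the member with the largest decrease, had 1 chow LiFKO peak with a score of 14.5 (34.9%) and none in chow Control.

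**Figure D5:**
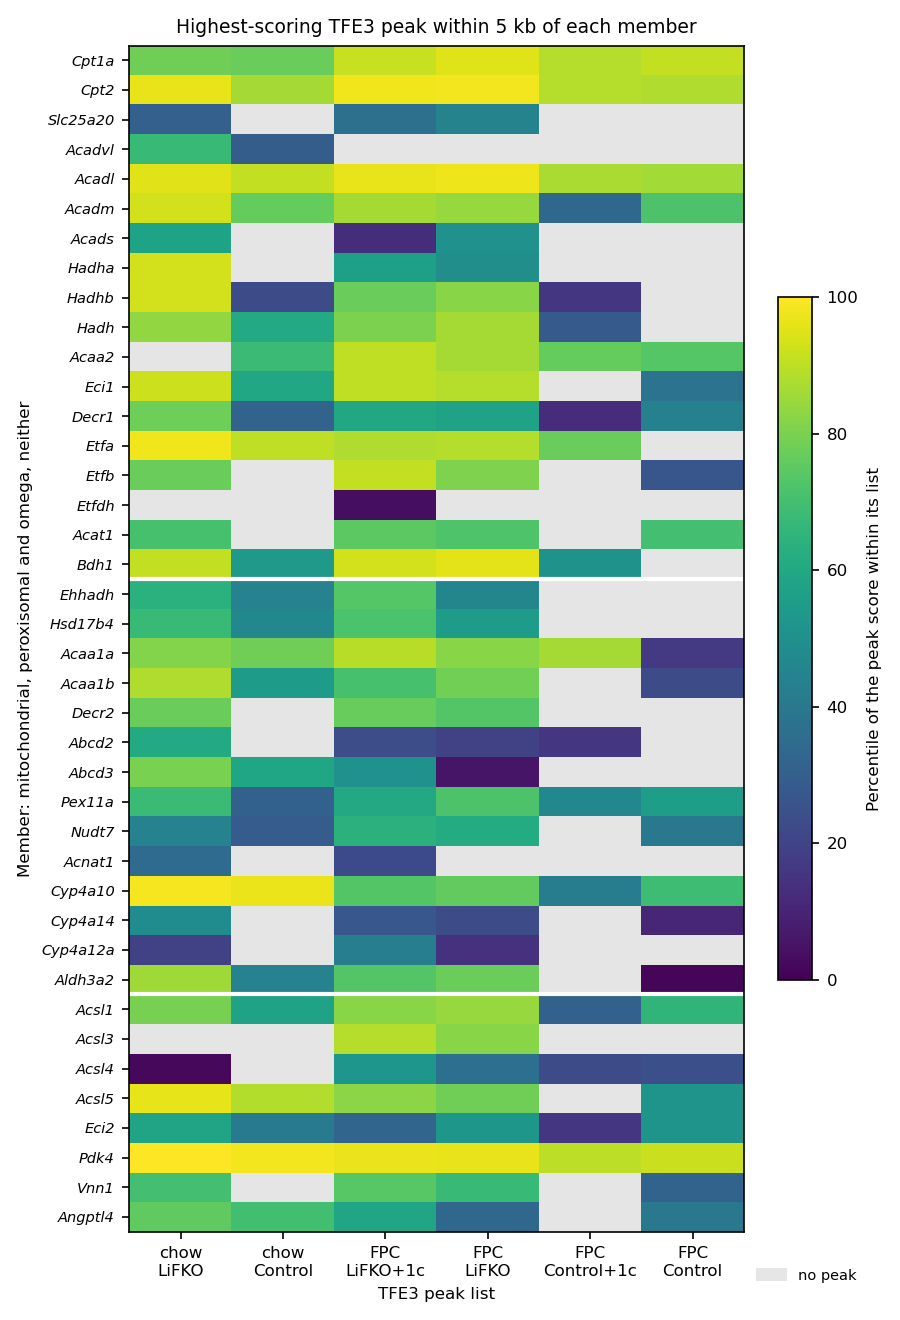
Percentile, within each of 6 TFE3 peak lists, of the highest-scoring peak within 5 kb of each of the 40 members; grey marks no peak, and white lines part the mitochondrial, peroxisomal and omega, and other members. Most cells are coloured in the LiFKO lists (37 to 39 of 40) and fewer in the Control lists (18 to 26 of 40), and the top Pdk4 peak lies above at least 90.2% of each list.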

How the data were processed

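The authors deposited log2 expression values per gene from 15 RNA-seq libraries of mouse liver. Per the submitters' processing notes, reads were handled with bcl2fastq 2.17, Trimmomatic 0.32, STAR 2.6.0c, SAMtools, featureCounts and limma on mm9; the common distribution of all libraries was seen in the values. HOMER peak lists with a score per peak were deposited by the authors, per the file headers pooled over libraries (HOMER 4.11 on chow, 4.4 on FPC diet, per the submitters' processing notes). No strand or multi-mapping setting is given in the sources used here.

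A group-means model was fitted over all 15 libraries and 13815 genes with limma 3.58.1 (R 4.3.3; empirical Bayes with a mean-variance trend), with no further filter, p-values adjusted by Benjamini-Hochberg over all genes, and calls at an adjusted p under 0.05. A test on counts had been foreseen; the values are log2, so limma was used. A peak was assigned to a gene when its midpoint lay within 5 kb of the gene body (Python 3.11.15, pandas 2.3.3). The scripts were tested on simulated data. Same-numbered libraries deviated together in LiFKO and Control livers on chow (correlations of deviations 0.113 to 0.237), where the pairing comes from the data and not from the labels' account of the mice.

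The members and all other gene lists were chosen with earlier results of these data known. Members named with values per library were the members with the smallest p-values in each role, at most 20 in all, with Acaa1b as the stated exception; every member has its difference in at least 1 comparison. Alternatives covered scaling, trend, robust and weighted fits, the replicate block, single libraries left out, and peak distance and score.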

Additional observations from a re-analysis of the deposited data

Results flagged for a closer look

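For Acnat1 the effect of Flcn loss differed between the diets by a test of the difference itself: the difference on AMLN diet minus that on chow was 1.12 log2 (SE 0.22, adjusted p = 0.0303 by limma), with a decrease of -1.02 on AMLN diet and of -2.14 on chow. Its near-identical neighbour Acnat2 had -2.13 on AMLN diet and -1.9 on chow, and the difference between them was not called (-0.23, adjusted p = 0.871). How reads shared by the copies were counted was not tested. The Acnat1 call was lost with limma's trend off and without several single libraries, as given above.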

How the results depend on the processing

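No called difference of a member changed sign under the alternatives run. The class medians moved by less than the SD between replicates of the median expression level of the class (0.161 mitochondrial, 0.366 peroxisomal and omega). That SD is of levels and not of the differences, so it does not show that the medians were stable. With single libraries left out, the peroxisomal and omega median ran from -0.58 to -0.14 (AMLN LiFKO against AMLN Control) and from -0.61 to -0.21 (difference between diets). 3 small medians changed sign: -0.11 to 0.03 (mitochondrial, DKO against LiFKO), -0.01 to 0.12 (mitochondrial, AMLN LiFKO against chow LiFKO) and -0.05 to 0.28 (peroxisomal and omega, DKO against AMLN Control). With the replicate block, DKO against LiFKO had 1 lower member, and with the block within each diet, chosen after seeing the data, 10 higher and 1 lower; that block gave 6 higher and 0 lower in AMLN LiFKO against chow LiFKO and 2 higher and 3 lower for the difference between diets. With limma's trend off, DKO against LiFKO had 3 higher, AMLN LiFKO against chow LiFKO 0 lower and the difference between diets 0 higher. Library weights gave 8 lower in AMLN LiFKO against AMLN Control, 2 lower in DKO against LiFKO, 23 higher in AMLN Control against chow Control and 6 lower for the difference between diets; trimmed-mean scaling gave 1 lower there. With only the compared libraries fitted, there were 5 higher in AMLN LiFKO against AMLN Control, 2 lower in DKO against LiFKO, 9 higher in AMLN Control against chow Control, and 0 higher and 0 lower in AMLN LiFKO against chow LiFKO. Leaving out single libraries of the groups compared gave, higher and lower, 3 to 5 and 0 to 1 for DKO against LiFKO, 5 to 9 and 4 to 11 for LiFKO against Control on AMLN diet, 12 to 16 and 1 to 3 on chow, 6 to 23 and 1 to 2 for AMLN Control against chow Control, 1 to 1 and 0 to 1 for AMLN LiFKO against chow LiFKO, and 0 to 1 and 0 to 6 for the difference between diets. Keeping the higher-scoring peaks of each list left 17 members with a chow Control peak, 8 with an FPC Control+1c and 12 with an FPC Control peak, of 40; of all genes 29.7%, 26.2% and 25% had one. Start-site distance, chosen after seeing the data, gave 17, 6 and 10 of the 30 members with a strand, against 33.2%, 24.5% and 24.5% of all such genes, and a 20 kb distance gave 29 for FPC Control+1c. The depth of the libraries is unknown, so no limit of detection can be given.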
